A study of Mus musculus with 12 samples.

Results

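*Tespa1* and 9 genes of inositol trisphosphate (IP3) and calcium signalling were followed in LSKs, the Lin- Sca-1+ c-Kit+ fraction of mouse bone marrow (BM) that holds hematopoietic stem cells (HSCs) and multipotent progenitors. The 10 genes were selected by symbol from a table of 53465 genes: *Tespa1*; the IP3 receptor genes *Itpr1*, *Itpr2* and *Itpr3*; the phospholipase C-gamma genes *Plcg1* and *Plcg2*; *Hspa9*; *Stim1*; *Orai1*; and *Nfatc1*. RNA-seq of sorted LSKs had been made from 4 groups with 3 libraries each: untreated *Tespa1*+/+ mice, untreated *Tespa1*-/- mice, and mice of both genotypes at day 9 after 150 mg/kg 5-fluorouracil (5-FU), a drug that kills cycling cells. The *Tespa1*+/+ mice were littermates, and the knockout line (B6.129S-*Tespa1*tm1Smoc) had been backcrossed to C57BL/6 for more than 6 generations. The study's methods give male mice of 8 to 10 weeks, apart from an experiment on older animals. No Cre driver or other restriction of the knockout to a cell type is given. Which exons the *Tespa1* allele removes, and whether a library is 1 mouse or a pool, is not given in the sources used here, so that p-values measure the spread between these libraries only. The study used RNA-seq to ask how Tespa1 acts in the response of HSCs to stress such as 5-FU, and the untreated libraries allow the same comparison without the drug.

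Tespa1 was described as an adaptor of the T cell receptor pathway that associates with IP3 receptors and with PLC-gamma. In this pathway an activated receptor recruits PLC-gamma, which cleaves a membrane lipid into IP3 and diacylglycerol, and IP3 opens receptors in the endoplasmic reticulum (ER) that release calcium. STIM proteins sense the emptied store and open ORAI channels in the plasma membrane, and the calcium that enters activates calcineurin and the NFAT transcription factors. GRP75, the product of *Hspa9*, is a mitochondrial HSP70 that also tethers IP3 receptors to the outer mitochondrial membrane.

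The *Tespa1* primers that the study used for qPCR are shown to give the place in the gene at which the study measured its transcript. They lie on chromosome 10 (GRCm38) at chr10:130347188-130347207 and chr10:130347316-130347335, inside *Tespa1* (chr10:130322870-130364111, plus strand), and both fall in coding exon 2 of 9 of transcript Tespa1-201. Capitals mark the annotated start codon.
Tespa1 qPCR forward primer: ATGgaggcatcggtactgag
Tespa1 qPCR reverse primer: catccaggctagaaggctcg
The product spans 148 bases, and 3 of the 6 *Tespa1* transcripts of GENCODE M21 hold both primers. The deposited values are 1 number per gene, so reads over this exon could not be separated from reads over the rest of *Tespa1*.

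Counts over all genes summed to 22118154 to 28275079 per library (median 23401715). A level of 3 counts, taken as the smallest that can be detected, equals 0.107 to 0.136 CPM (a gene's count scaled to library size), and this limit covers counting error only. The 10 genes had at least 294 counts in every library. CPM were scaled by TMM factors over the 12 libraries. Marker genes of other cell types moved with the groups. The summed level of 10 neutrophil genes was 0.770 to 1.36 CPM in untreated *Tespa1*+/+ LSKs, 4.61 to 5.85 CPM in untreated *Tespa1*-/- LSKs, 3.66 to 8.42 CPM in *Tespa1*+/+ LSKs after 5-FU and 1023 to 1026 CPM in *Tespa1*-/- LSKs after 5-FU. The summed level of 10 genes of LSK identity was lowest in the last group, at 800.4 to 868.4 CPM, and reached 1600 to 1672 CPM in untreated *Tespa1*+/+ LSKs, with 1332 to 1385 and 1329 to 1374 CPM in the remaining groups. Single genes of this list did not all follow the sum. With 5-FU in *Tespa1*+/+ LSKs, 8 of the 10 had positive and 2 negative log2 fold changes, with a median of 0.37. With the genotype after 5-FU, 9 were negative and 1 was positive. *Kit*, which encodes the c-Kit of the sorting gate, fell by 0.45 on the log2 scale with the genotype after 5-FU (adjusted p = 0.000221, edgeR's quasi-likelihood test), and *Ly6a*, which encodes Sca-1, fell by 1.24 (adjusted p = 0.0265). Summed levels of 7 erythroid genes were 18.7 to 27.2 CPM in untreated *Tespa1*+/+ LSKs and 52.1 to 57.9 CPM in untreated *Tespa1*-/- LSKs. After 5-FU they were 44.6 to 57.0 CPM in *Tespa1*+/+ LSKs and 310.5 to 329.5 CPM in *Tespa1*-/- LSKs. Over all libraries, summed levels of 5 mast cell and basophil genes ran from 9.99 to 91.6 CPM, those of 7 megakaryocyte genes from 44.2 to 262.7 CPM and those of 6 monocyte genes from 311.4 to 484.9 CPM, each highest in a *Tespa1*-/- library after 5-FU. For the monocyte genes, untreated *Tespa1*-/- libraries at 458 to 481.8 CPM overlapped those after 5-FU at 472.8 to 484.9 CPM. Monocyte genes also split with the genotype after 5-FU. *F13a1* was called higher (1.17, adjusted p = 6.03e-06, edgeR's quasi-likelihood test). *Ccr2* (-0.255, adjusted p = 0.0459) and *Ms4a6c* (-0.709, adjusted p = 0.00188) were called lower, and the other 3 were not called. Summed levels of 8 T cell genes lay between 5.33 and 13.9 CPM in every library, but single genes of this list moved. *Cd3e* had 0.632 to 1.39 CPM and *Cd8b1* 1.13 to 2.71 CPM in *Tespa1*-/- LSKs after 5-FU, both were at 0 in *Tespa1*+/+ LSKs after 5-FU, and both were called higher with the genotype there (adjusted p = 0.0131 and 0.00401, edgeR's quasi-likelihood test). The other 5 T cell genes tested in this comparison were not called, with log2 fold changes of -1.90 for *Cd5*, -0.67 for *Cd247*, 0.07 for *Cd4*, 2.25 for *Cd8a* and 3.78 for *Cd3g*. Of the 8 T cell genes, 0 to 1 were at 0 in these *Tespa1*-/- libraries and 4 in each of the *Tespa1*+/+ libraries after 5-FU, against 4 to 5 and 2 to 3 in untreated *Tespa1*+/+ and *Tespa1*-/- libraries. In bulk samples, fewer cells of a type and less RNA per cell cannot be told apart, and the part of these markers in the results that follow was not tested.

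The 10 genes spanned a wide range of levels per length in untreated *Tespa1*+/+ LSKs. On the deposited FPKM scale, *Hspa9* was highest at 101.7 ± 3.25 FPKM (SD, n = 3), followed by *Plcg2* at 87.8 ± 2.37 FPKM. *Itpr1* with 14.96 ± 0.608 FPKM and *Nfatc1* with 14.91 ± 0.926 FPKM came next and did not differ beyond their spread. They were followed by *Itpr3* at 11.5 ± 0.729 FPKM, *Plcg1* at 9.42 ± 0.562 FPKM, *Tespa1* at 6.87 ± 0.522 FPKM and *Orai1* at 6.80 ± 0.799 FPKM, where the last pair was again within its spread. *Itpr2* at 5.48 ± 0.253 FPKM and *Stim1* at 2.87 ± 0.256 FPKM were lowest. FPKM use the gene-model lengths of the table, such as 20911 bases for *Itpr1*, 11730 for *Plcg1* and 4298 for *Plcg2*, so a gene with long exons that LSKs do not use is placed too low. *Tespa1* is given 6679 bases, while its transcript Tespa1-201 has 1663. The same lengths enter the shares of summed FPKM given below. On this scale *Plcg2*, the form of PLC-gamma known from B cells and myeloid cells, far exceeded *Plcg1*, the form known from T cells, whereas *Tespa1* was one of the less abundant of the 10 transcripts. Without scaling by length, *Plcg2* had a mean of 382.3 CPM and *Plcg1* of 111.9 CPM in these libraries.

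**Figure D1:**
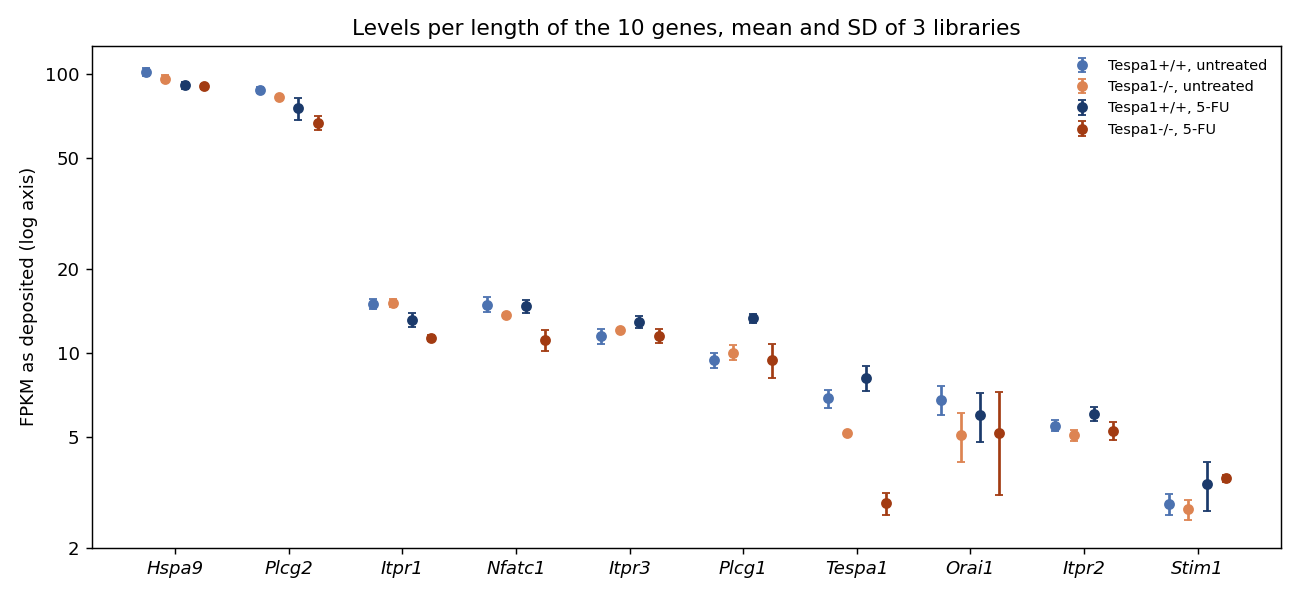
Levels per length of the 10 genes, as deposited FPKM on a log axis. Points are means and bars the SD of 3 libraries per group, with groups told apart by color. *Hspa9* and *Plcg2* stand above the other 8 genes in every group, and *Tespa1* falls from 6.87 FPKM in untreated *Tespa1*+/+ LSKs to 2.88 FPKM in *Tespa1*-/- LSKs after 5-FU.

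*Tespa1* itself was reduced but not absent in the knockout libraries. Its levels were 49.8, 43.0 and 46.5 CPM in the untreated *Tespa1*+/+ libraries and 34.5, 34.9 and 34.8 CPM in the untreated *Tespa1*-/- libraries. The groups did not overlap, and the knockout libraries still held 786 to 798 counts each. The log2 fold change was -0.42 ± 0.09 (SE), which passed edgeR's quasi-likelihood test after Benjamini-Hochberg adjustment (adjusted p = 0.0316). This call was lost when *Tespa1*+/+ replicate 1 or 3 or any *Tespa1*-/- replicate was left out, with an adjusted p of 0.0601 to 0.14 and log2 fold changes of -0.42 to -0.36. An exact permutation test of 3 libraries against 3 cannot give a p below 0.1, and gave p = 0.1.

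After 5-FU the genotypes lay further apart. *Tespa1* had 47.2, 55.0 and 57.5 CPM in the *Tespa1*+/+ libraries and 20.8, 19.8 and 17.3 CPM in the *Tespa1*-/- libraries. The lowest *Tespa1*+/+ library was above the highest *Tespa1*-/- library, and 383 to 570 counts per library remained in the knockout. *Tespa1* fell by 1.47 ± 0.12 (SE) on the log2 scale (adjusted p = 9.38e-05, edgeR's quasi-likelihood test). The mean was 0.362 of that in *Tespa1*+/+ LSKs after 5-FU, against 0.749 without the drug. The difference between both genotype effects was tested as an interaction over the 12 libraries and was -1.04 ± 0.15 on the log2 scale (adjusted p = 0.00104, edgeR's quasi-likelihood test). Within genotypes, 5-FU lowered *Tespa1* in *Tespa1*-/- LSKs by -0.86 ± 0.10 (adjusted p = 0.00065), whereas in *Tespa1*+/+ LSKs the log2 fold change was 0.20 with a 95% interval of -0.05 to 0.44 (adjusted p = 0.348). In the wild type, the groups with and without 5-FU overlapped, at 47.2 to 57.5 CPM and 43.0 to 49.8 CPM.

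**Figure D2:**
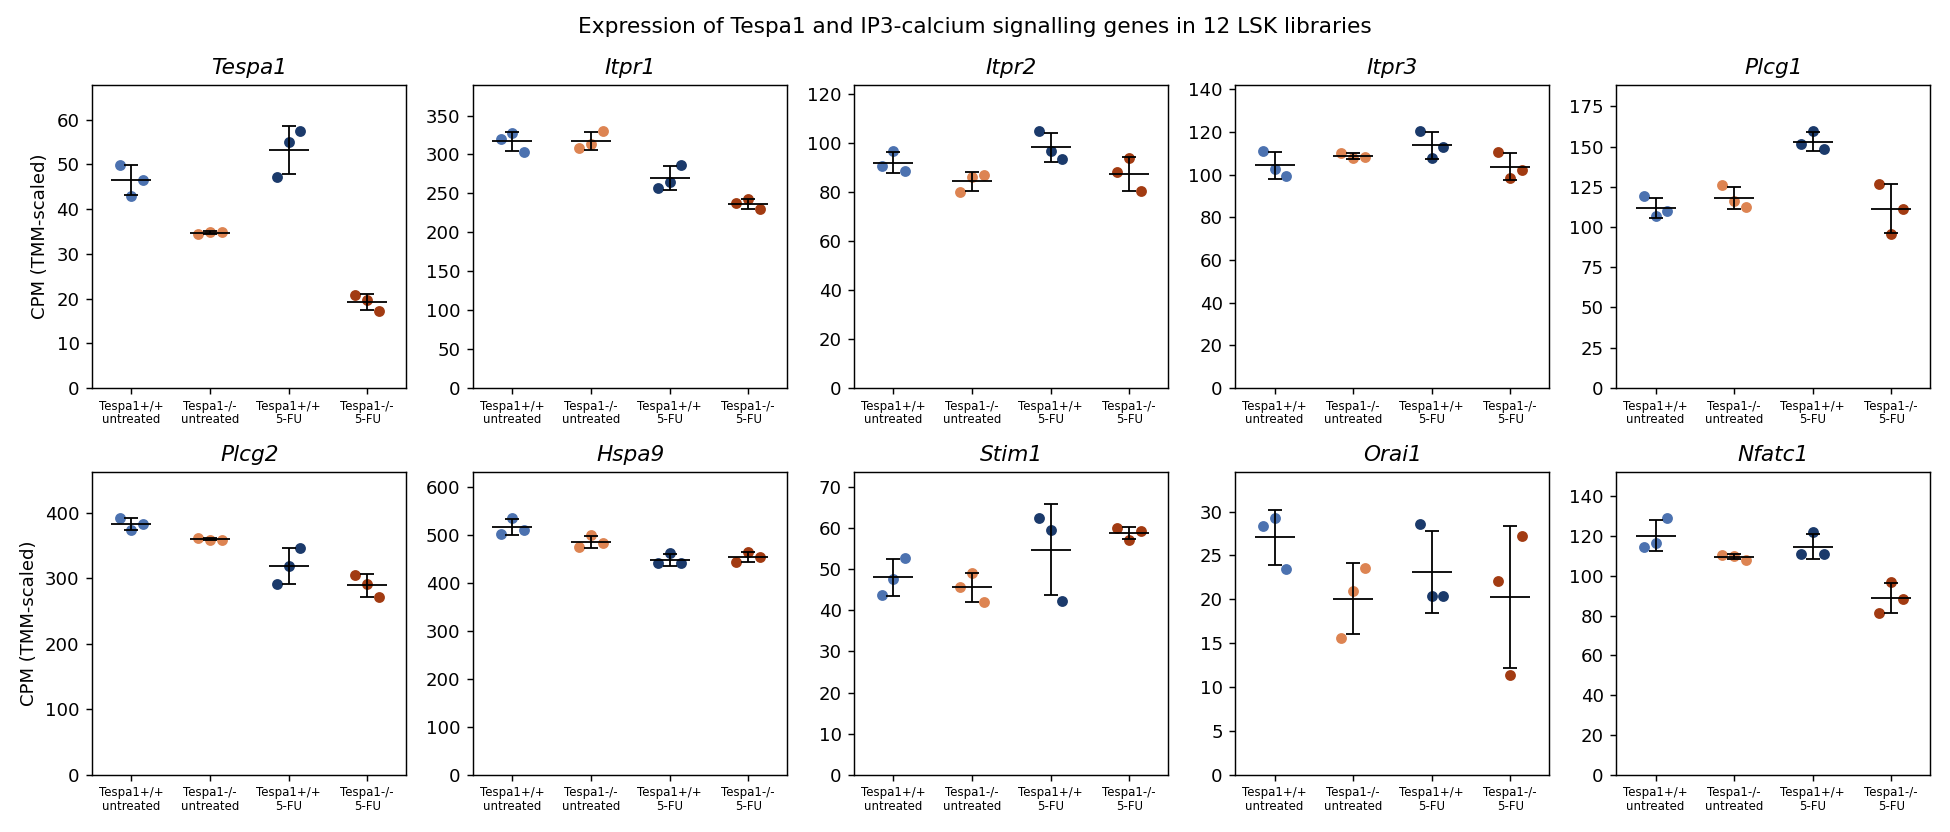
CPM (TMM-scaled) of each of the 10 genes in the 12 libraries, with 1 point per library, horizontal lines at group means and bars for the SD (n = 3). Each panel starts at 0. *Tespa1* is lowest in the *Tespa1*-/- libraries after 5-FU at 17.3 to 20.8 CPM, and *Plcg1* is highest in the *Tespa1*+/+ libraries after 5-FU at 148.3 to 159.6 CPM.

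The PLC-gamma genes encode the enzymes that make IP3 downstream of tyrosine kinases, and the effect of the genotype on *Plcg1* depended on 5-FU by the test of that difference. Levels of *Plcg1* were 119.1, 107.1 and 109.7 CPM in untreated *Tespa1*+/+ LSKs and 126.0, 116.3 and 112.4 CPM in untreated *Tespa1*-/- LSKs. These groups overlapped, with a log2 fold change of 0.08 and a 95% interval of -0.08 to 0.24 (adjusted p = 0.606, edgeR's quasi-likelihood test). After 5-FU, *Plcg1* had 151.6, 159.6 and 148.3 CPM in *Tespa1*+/+ LSKs and 126.6, 95.9 and 111.3 CPM in *Tespa1*-/- LSKs. All *Tespa1*-/- libraries were below all *Tespa1*+/+ libraries, although they spread more. *Plcg1* fell by 0.47 ± 0.10 (SE) on the log2 scale with the genotype after 5-FU (adjusted p = 0.0122), a call that held in every alternative fit. The interaction of -0.54 ± 0.13 passed as well (adjusted p = 0.026) but lost its call without *Tespa1*+/+ untreated replicate 2 or 3, *Tespa1*-/- untreated replicate 1 or 2, *Tespa1*+/+ 5-FU replicate 2 or *Tespa1*-/- 5-FU replicate 3 (adjusted p = 0.0511 to 0.0774). 5-FU raised *Plcg1* in *Tespa1*+/+ LSKs by 0.45 ± 0.07 (adjusted p = 0.00421), again in every alternative fit, while in *Tespa1*-/- LSKs the log2 fold change was -0.10 with a 95% interval of -0.32 to 0.12 (adjusted p = 0.536). *Plcg1* lies at chr2:160731300-160775760 and shares its locus with *Zhx3* on the opposite strand, whose counts amounted to 13.1% of those of *Plcg1*. Whether the counting used strand is not given in the sources used here, so reads of the overlap could belong to either gene.

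*Plcg2* (chr8:117498291-117635142) was lower after 5-FU in both genotypes. Its levels were 391.8, 373.4 and 381.8 CPM in untreated *Tespa1*+/+ LSKs and 290.2, 318.6 and 346.2 CPM after 5-FU. *Tespa1*-/- LSKs had 360.8, 358.5 and 358.7 CPM without and 305.1, 291.3 and 270.6 CPM with 5-FU. All treated libraries were below the untreated ones of their genotype. The fall was -0.26 ± 0.07 (SE) in *Tespa1*+/+ LSKs (adjusted p = 0.0446, edgeR's quasi-likelihood test) and -0.33 ± 0.05 in *Tespa1*-/- LSKs (adjusted p = 0.00218). The call in *Tespa1*+/+ LSKs was lost without any of the untreated replicates, without 5-FU replicate 1 or 2 (adjusted p = 0.0943 to 0.13), and with library totals in place of TMM (adjusted p = 0.0992). The untreated genotypes did not overlap. For the genotype effect on *Plcg2*, 95% intervals ran from -0.18 to 0 without and from -0.31 to 0.02 with 5-FU, and neither passed the test. *Plcg1* made up 9.68% ± 0.29 (SD, n = 3) of the summed FPKM of both genes in *Tespa1*+/+ LSKs at rest and 15% ± 1.31 with the drug. In the knockout its share was 10.8% ± 0.533 at rest and 12.4% ± 1.37 with the drug.

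As *Plcg1* was called higher and *Plcg2* lower with 5-FU in *Tespa1*+/+ LSKs, the 250 bases before their RefSeq starts (GRCm38.p6) are shown, at chr2:160731060-160731309 and chr8:117498025-117498274, both on the plus strand. Capitals mark matches, on either strand, to 5 motifs: GGAAA (core of NFAT sites), GGAAG (core of ETS sites), TGTGGT (core of RUNX sites), CACGTG (the E-box bound by MYC) and GGGCGG (GC box).
Plcg1 promoter: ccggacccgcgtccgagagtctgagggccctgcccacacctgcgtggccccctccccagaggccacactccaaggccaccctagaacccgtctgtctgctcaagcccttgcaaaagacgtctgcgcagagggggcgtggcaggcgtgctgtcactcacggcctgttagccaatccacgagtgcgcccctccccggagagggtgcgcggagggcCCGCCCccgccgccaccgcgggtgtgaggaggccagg
Plcg2 promoter: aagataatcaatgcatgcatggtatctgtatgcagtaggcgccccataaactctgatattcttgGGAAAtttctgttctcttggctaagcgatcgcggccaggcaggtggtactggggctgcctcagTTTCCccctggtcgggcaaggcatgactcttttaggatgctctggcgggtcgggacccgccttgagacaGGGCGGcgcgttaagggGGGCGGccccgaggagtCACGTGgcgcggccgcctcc
The *Plcg1* stretch held 1 GC box and no match to the other 4 motifs, and 71.2% of its bases were G or C. The *Plcg2* stretch held 2 matches to GGAAA, 1 to CACGTG and 2 GC boxes, with 59.6% G or C. Of 32536 distinct promoter stretches of the same length, 55.7% held GGAAA, 64.1% GGAAG, 14.0% TGTGGT, 6.04% CACGTG and 33.0% GGGCGG, and their median GC content was 52.4%. Promoter stretches of 6 of the 10 genes were at hand. Those of *Itpr2*, *Itpr3*, *Stim1* and *Orai1* held no GGAAA, each held at least 1 GC box, and *Itpr3* held 1 CACGTG. A match of letters is a description and does not say whether a factor binds.

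The IP3 receptors are the calcium channels of the ER to which Tespa1 binds, and of the 3 genes *Itpr1* was the one that moved with 5-FU. *Itpr1* levels were 320.0, 327.0 and 303.4 CPM in untreated *Tespa1*+/+ LSKs and 308.6, 313.0 and 330.0 CPM in untreated *Tespa1*-/- LSKs. After 5-FU they were 257.1, 264.6 and 287.1 CPM in *Tespa1*+/+ and 237.3, 242.6 and 229.5 CPM in *Tespa1*-/- LSKs. The untreated groups overlapped, whereas each treated group was below its untreated group and the treated *Tespa1*-/- libraries were below the treated *Tespa1*+/+ ones. 5-FU lowered *Itpr1* by -0.44 ± 0.05 (SE) in *Tespa1*-/- LSKs (adjusted p = 0.000288, edgeR's quasi-likelihood test). The fall in *Tespa1*+/+ LSKs was -0.23 ± 0.06 (adjusted p = 0.0483), and its call ended without any untreated replicate or without 5-FU replicate 1 or 2 (adjusted p = 0.057 to 0.156), with library totals (adjusted p = 0.114) and with no filter (adjusted p = 0.0682). The interaction for *Itpr1* was -0.19 and was not called (adjusted p = 0.172). The genotype effect after 5-FU was -0.19 ± 0.06 with an adjusted p of 0.0548. It was called by DESeq2 (adjusted p = 0.0187), with library totals (0.033), with at least 10 counts in every library (0.0407) and with all 12 libraries in 1 fit (0.0271). Without the drug the genotype effect was 0.00, with a 95% interval of -0.11 to 0.12.

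*Itpr2* and *Itpr3* passed no test. *Itpr2* ranged from 79.9 to 104.7 CPM and *Itpr3* from 98.2 to 120.4 CPM over the 12 libraries. The untreated *Tespa1*-/- libraries had 79.9, 86.1 and 86.8 CPM of *Itpr2* and the untreated *Tespa1*+/+ libraries 90.5, 96.5 and 88.5 CPM, which did not overlap. Their log2 difference of -0.12 had an adjusted p of 0.398 (edgeR's quasi-likelihood test). After 5-FU the genotype effect had 95% intervals of -0.36 to 0.01 for *Itpr2* and -0.30 to 0.03 for *Itpr3*. A processed pseudogene on the same strand within *Itpr2*, Gm15720, had 8.64% of the counts of *Itpr2*, and reads of one may have been counted for the other. With the fall of *Itpr1*, its share in the summed FPKM of the 3 receptor genes went from 46.9% ± 0.711 (SD, n = 3) at rest to 41.0% ± 2.35 with the drug in the wild type. The knockout showed shares of 46.9% ± 0.756 at rest and 40.2% ± 0.985 with the drug. The lowest share of *Itpr1* without the drug was 46.2% and the highest with it 43.0%. *Itpr3* took the largest part of the remainder, at 35.9% ± 1.34 in untreated *Tespa1*+/+ and 41.0% ± 1.98 in *Tespa1*-/- LSKs after 5-FU.

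**Figure D3:**
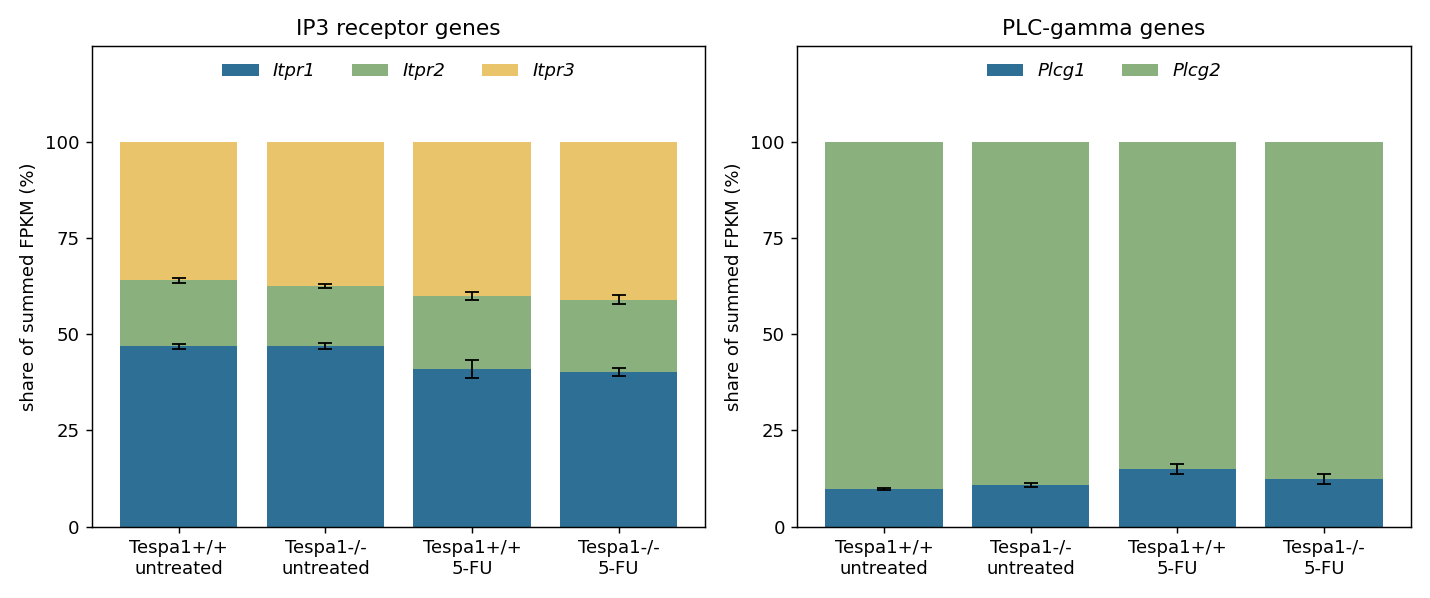
Composition of the IP3 receptor genes (left) and of the PLC-gamma genes (right) in each group, as each gene's share of the summed FPKM of its family in percent. Bars are means of 3 libraries, and each error bar is the SD of the share of the gene whose segment ends there, with none drawn for the top segment. *Itpr1* makes up 46.9% of receptor FPKM in both untreated groups and 40.2 to 41.0% after 5-FU, and *Plcg1* makes up 9.68% of PLC-gamma FPKM in untreated and 15% in treated *Tespa1*+/+ LSKs.

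*Hspa9*, whose product joins IP3 receptors to the mitochondrial channel VDAC, was lowered by 5-FU in *Tespa1*+/+ LSKs. It had 502.4, 535.1 and 510.0 CPM without and 440.1, 462.7 and 440.8 CPM with the drug, and all treated libraries were lower. The log2 fold change was -0.20 ± 0.05 (SE; adjusted p = 0.029, edgeR's quasi-likelihood test). This call was lost without untreated replicate 2 or 3 or any 5-FU replicate (adjusted p = 0.0574 to 0.109), with library totals (adjusted p = 0.0825) and with no filter (adjusted p = 0.0516). *Tespa1*-/- LSKs had 474.9, 499.5 and 483.3 CPM without and 443.8, 464.5 and 453.9 CPM with 5-FU. These groups did not overlap either, and the log2 fold change of -0.11 had an adjusted p of 0.0755. The difference between both responses of *Hspa9* was 0.10 with a 95% interval of -0.02 to 0.23. *Hspa9* did not pass the test between genotypes, where 95% intervals were -0.18 to 0.01 without and -0.08 to 0.11 with 5-FU.

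STIM1, the calcium sensor of the ER, and ORAI1, the pore of store-operated entry, act in sequence once the store is emptied. *Stim1* levels in *Tespa1*-/- LSKs were 45.8, 49.0 and 41.9 CPM without and 60.1, 57.1 and 59.4 CPM with 5-FU, so that the treated libraries were all higher. *Stim1* rose by 0.36 ± 0.08 (SE) in this genotype (adjusted p = 0.0147, edgeR's quasi-likelihood test). The call was lost with all 12 libraries in 1 fit (adjusted p = 0.0754) and without untreated *Tespa1*-/- replicate 1 or 3 (adjusted p = 0.0513 and 0.0563). In *Tespa1*+/+ LSKs the levels were 43.8, 47.6 and 52.7 CPM without and 62.5, 59.7 and 42.3 CPM with 5-FU. Replicate 3 of the treated group was below every untreated replicate, and the log2 fold change of 0.19 had a 95% interval of -0.15 to 0.53. Without that replicate, the *Stim1* genotype effect after 5-FU turned from 0.10 to -0.06. The interaction for *Stim1* was 0.18 with a 95% interval of -0.22 to 0.57. In fits without 1 library, this interaction lay between 0.001 and 0.265. The 5-FU effect on *Stim1* in *Tespa1*+/+ LSKs lay between 0.086 and 0.349 in such fits.

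*Orai1* levels were 28.4, 29.3 and 23.5 CPM in untreated *Tespa1*+/+ and 15.6, 20.9 and 23.6 CPM in untreated *Tespa1*-/- LSKs. After 5-FU they were 28.5, 20.4 and 20.4 CPM in *Tespa1*+/+ and 22.1, 11.4 and 27.3 CPM in *Tespa1*-/- LSKs. All 4 groups overlapped with their counterparts. The genotype effect in untreated LSKs was -0.43 ± 0.17 (SE) with an unadjusted p of 0.0336 and an adjusted p of 0.221 in edgeR's quasi-likelihood test. With the drug, the 95% interval of the genotype effect was -0.84 to 0.45, and without *Tespa1*-/- replicate 2 its value changed from -0.20 to 0.09.

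*Nfatc1*, a transcription factor that calcineurin sends to the nucleus, was lower in *Tespa1*-/- LSKs after 5-FU. Its levels there were 81.4, 96.7 and 88.5 CPM, against 111.2, 121.9 and 110.9 CPM in *Tespa1*+/+ LSKs after 5-FU. The groups did not overlap, and *Nfatc1* fell by 0.37 ± 0.08 (SE) on the log2 scale (adjusted p = 0.0157, edgeR's quasi-likelihood test). The call was lost without *Tespa1*+/+ replicate 2 (adjusted p = 0.0649) and without *Tespa1*-/- replicate 1 (0.062) or 3 (0.0612). Untreated LSKs had 114.5, 116.8 and 129.2 CPM in *Tespa1*+/+ and 110.5, 110.2 and 108.1 CPM in *Tespa1*-/-. These did not overlap either, with a log2 difference of -0.13 and a 95% interval of -0.28 to 0.02 (adjusted p = 0.331). 5-FU lowered *Nfatc1* by -0.32 ± 0.07 in *Tespa1*-/- LSKs (adjusted p = 0.0143), a call lost without untreated replicate 1 (0.0526) or 2 (0.0521). In *Tespa1*+/+ LSKs the log2 fold change was -0.07, with a 95% interval of -0.24 to 0.11. The interaction of -0.24 for *Nfatc1* was not called (adjusted p = 0.241), and the test of this dependence on 5-FU passed for *Tespa1* and *Plcg1* and missed the threshold for the other 8 genes.

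**Figure D4:**
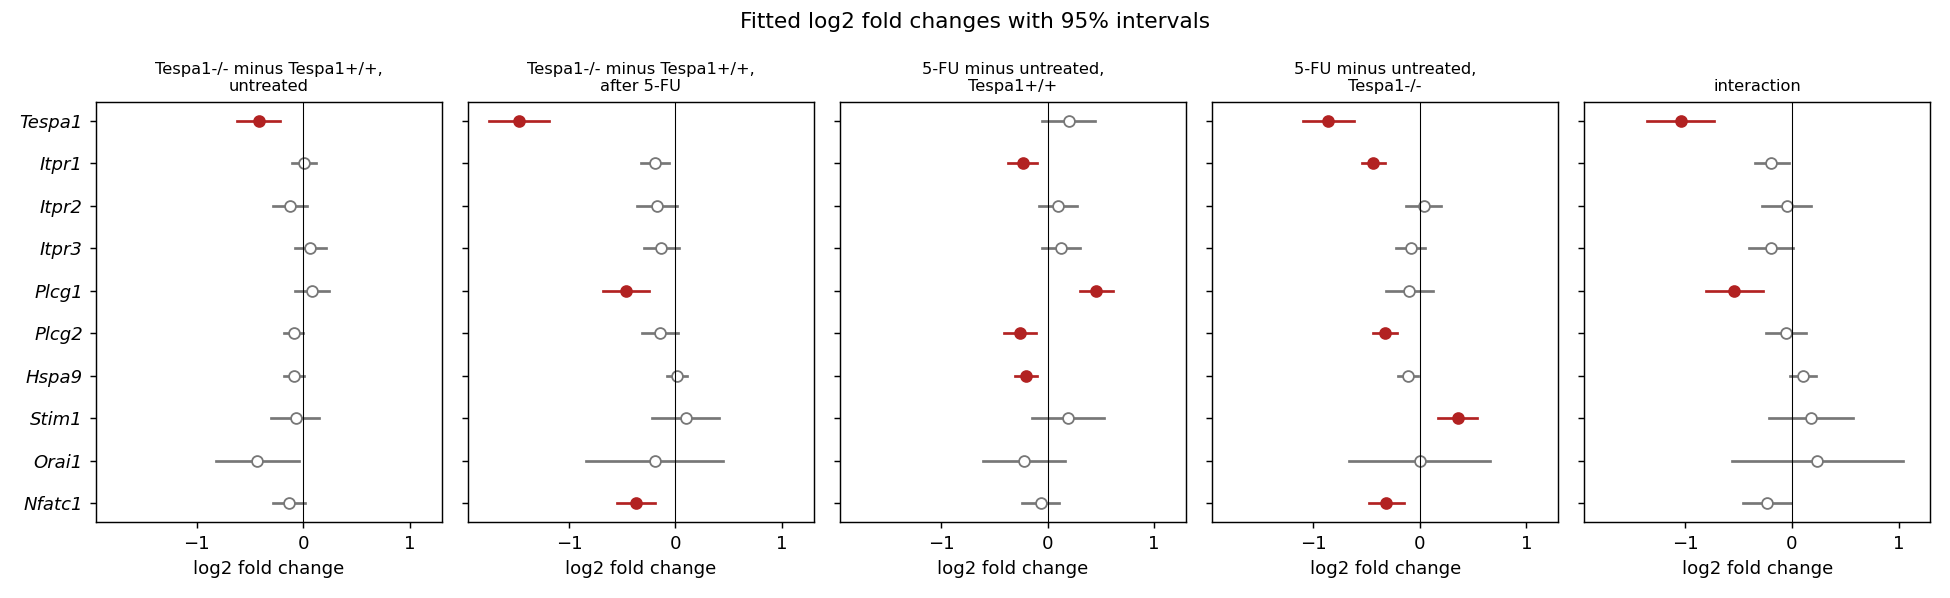
Fitted log2 fold changes of the 10 genes in both genotype comparisons, in both 5-FU comparisons and in the interaction (genotype effect after 5-FU minus that in untreated LSKs). Points are estimates and lines 95% intervals, and filled red points have an adjusted p below 0.05 in edgeR's quasi-likelihood test. *Tespa1* reaches -1.47 with the genotype after 5-FU, and *Orai1* has the widest intervals.

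Counted over the 10 genes, 1 gene (*Tespa1*) was called lower and 0 higher with the genotype in untreated LSKs. Of 17055 genes tested, 5.23% were called in either direction, 3.59% lower and 1.64% higher. At an unadjusted p below 0.05 the counts were 2 lower and 0 higher (18.5% of all genes), DESeq2 called 1 lower and 0 higher, and none passed a fold above 1.5 with an unadjusted p below 0.05 (6.74% of all genes). After 5-FU, 3 were lower with the genotype and 0 higher, against 13.1% of 17239 genes called, 5.78% lower and 7.34% higher. Here 4 were lower and 0 higher at an unadjusted p below 0.05 (26.7% of all genes), DESeq2 called 4 lower and 0 higher, and 1 passed the fold threshold (11.7%). With 5-FU in *Tespa1*+/+ LSKs, 1 gene was higher and 3 were lower, beside 7.95% of 17002 genes called, 3.77% higher and 4.18% lower. The unadjusted count was 4 (21.5% of all genes), and 0 passed the fold threshold (9.88%). In *Tespa1*-/- LSKs 1 was higher and 4 were lower, beside 19.4% of 17228 genes called, 10.7% higher and 8.64% lower. The unadjusted count was 6 (32.3%), and 1 passed the fold threshold (14.4%). In the interaction 2 were lower and 0 higher, beside 5.01% of 18696 genes called, 1.99% lower and 3.02% higher. The unadjusted counts were 4 lower and 0 higher (18.7% in either direction), those of DESeq2 2 and 0, and 1 gene passed the fold threshold (10.4%). Several of these counts rested on single libraries. The 1 gene called in untreated LSKs became 0 without *Tespa1*+/+ replicate 1 or 3 or any *Tespa1*-/- replicate. The 4 genes called with 5-FU in *Tespa1*+/+ LSKs became 1 without untreated replicate 2 or 3 or 5-FU replicate 1 or 2, 2 without untreated replicate 1 and 3 without 5-FU replicate 3. The 5 called in *Tespa1*-/- LSKs became 3 without untreated replicate 1, and the 2 of the interaction became 1 without the 6 libraries named for *Plcg1*. Since *Tespa1* is the gene knocked out, its lower level with the genotype is part of these counts. The groups of a comparison did not overlap for 5 of the 10 genes with the genotype in untreated LSKs (25.6% of all genes tested), for 4 after 5-FU (33%), for 4 with 5-FU in *Tespa1*+/+ (28.5%) and for 6 in *Tespa1*-/- LSKs (38.6%). Median log2 fold changes of the 10 genes were -0.09 and -0.18 for the genotype without and with 5-FU, and 0.02 and -0.11 for 5-FU in *Tespa1*+/+ and *Tespa1*-/- LSKs. Those of all genes tested lay between -0.01 and 0.01 in these 4 comparisons. The comparisons share groups and are not independent of each other.

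The wider pathway was described by 142 genes in 10 lists, from receptor-proximal kinases to calcineurin and NFAT. In untreated LSKs, 1 gene was higher and 3 were lower with the genotype among the 132 tested (3.03%, beside 5.23% of all genes). Under the rule for naming genes, 2 were named. *Nfatc2*, another calcineurin-dependent NFAT, had 59.5 ± 9.27 CPM (SD, n = 3) in *Tespa1*+/+ and 37.8 ± 3.32 CPM in *Tespa1*-/- LSKs and fell by 0.66 (adjusted p = 0.0209, edgeR's quasi-likelihood test), a call lost without any single *Tespa1*-/- replicate (adjusted p = 0.0549 to 0.114). *Plcb1*, a phospholipase C that G proteins activate, rose by 1.22 from 2.16 ± 0.519 to 5.01 ± 0.495 CPM (adjusted p = 0.0388). Its call was lost without *Tespa1*+/+ replicate 1 or 2 or any *Tespa1*-/- replicate (adjusted p = 0.0769 to 0.176). It was also lost with no filter (adjusted p = 0.0924) and with the replicate number as a block (adjusted p = 0.11). The other 2 genes called, chosen after their values were seen, were lower: *Itpkb*, a kinase that converts IP3, by 0.49 (adjusted p = 0.00135), and *Ppp3ca*, the catalytic subunit of calcineurin, by 0.27 (adjusted p = 0.043). *Ppp3ca* kept its call in 1 of the 6 fits that left out 1 library, that without *Tespa1*+/+ replicate 1. The *Ppp3ca* call was also lost with library totals (adjusted p = 0.05), with no filter (0.0534), with the replicate number as a block (0.119) and with all 12 libraries in 1 fit (0.0788). The one tested paralogue of *Tespa1*, *Ssfa2*, had a log2 difference of -0.18 and was not called.

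After 5-FU, 12 pathway genes were higher and 6 lower with the genotype among 129 tested (14%, beside 13.1% of all genes). *Camk2g*, a calcium- and calmodulin-dependent kinase, had 84.1, 64.7 and 92.8 CPM in *Tespa1*+/+ and 42.3, 42.3 and 43.8 CPM in *Tespa1*-/- LSKs and fell by 0.92 ± 0.13 (adjusted p = 0.00156, edgeR's quasi-likelihood test). By list, 3 of 10 tested pumps, exchangers and store buffers were higher and 1 was lower, 3 of 23 genes of calmodulin, calcineurin and NFAT were higher and 3 lower, and 2 of 17 genes of the ER-mitochondria contact were higher. Receptor-proximal signalling had 1 higher and 1 lower of 20, modulators of IP3 receptors 1 higher and 1 lower of 13, other genes of store-operated entry 1 higher of 9 and the mitochondrial HSP70 machinery 1 higher of 12. None of the other phospholipases C (5 tested, 2 at an unadjusted p below 0.05, 0 by DESeq2) and of the genes of IP3 and diacylglycerol metabolism (19 tested, 5 unadjusted, 1 by DESeq2) was called by edgeR. Genes with changes under 1.5-fold, chosen after their values were seen, included the ER calcium pumps *Atp2a2* (0.33, adjusted p = 0.00406) and *Atp2a3* (0.36, adjusted p = 0.00238) and the ER calcium buffer *Calr* (0.22, adjusted p = 0.00101). *Bcl2*, an apoptosis inhibitor that also binds IP3 receptors, was lower by -0.58 (adjusted p = 0.000796). *Camk2g* and these 4 genes kept their calls in every fit that left out 1 library. The gene called lower among the pumps, exchangers and store buffers was *Atp2b4* (-0.53, adjusted p = 0.0171). Its call was lost in 2 of the 6 fits without 1 library (highest adjusted p = 0.064).

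**Figure D5:**
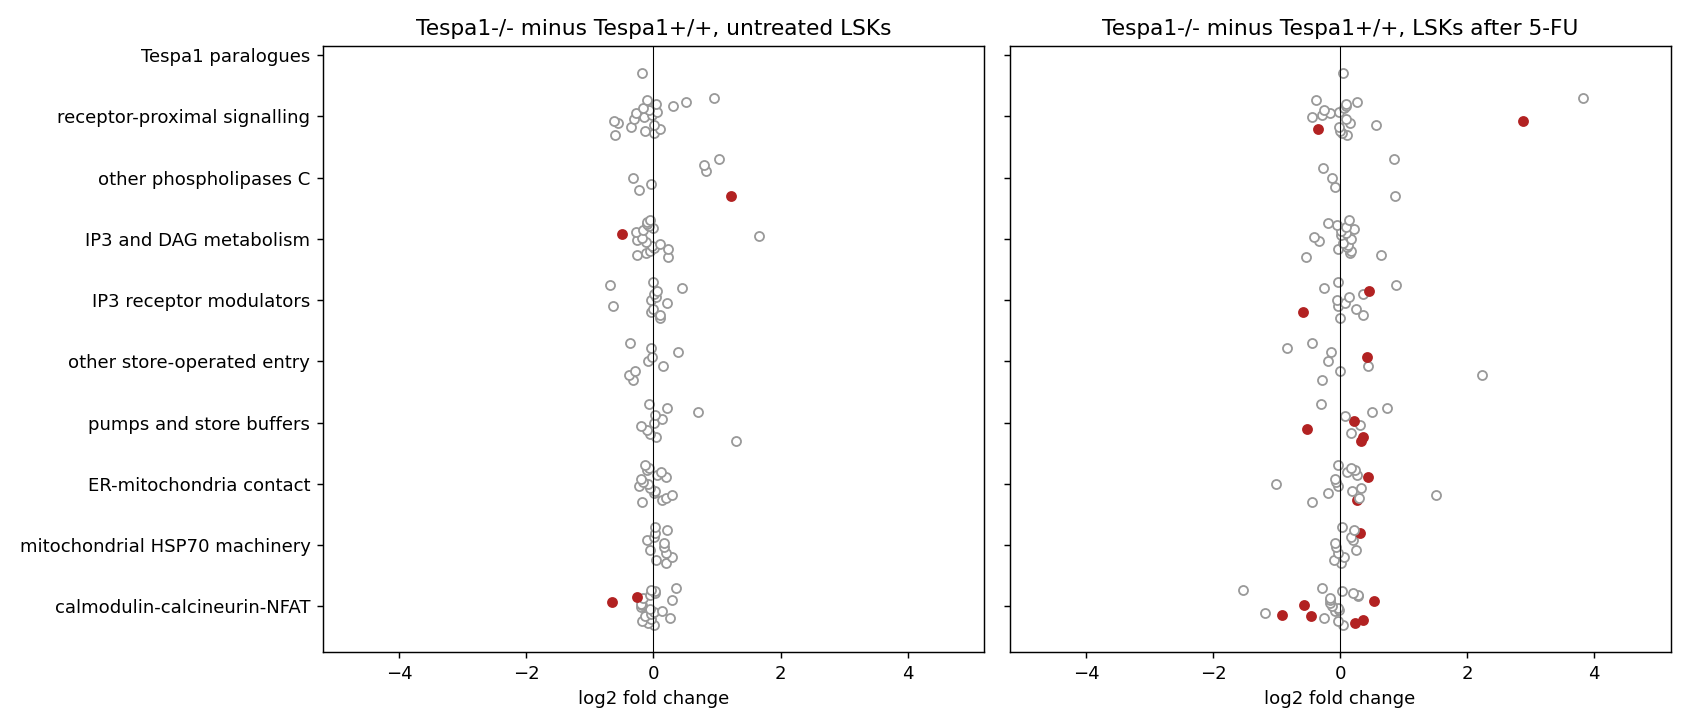
Log2 fold changes of the wider pathway genes with the genotype in untreated LSKs (left) and after 5-FU (right), by list, with 1 point per gene tested. Filled red points have an adjusted p below 0.05 in edgeR's quasi-likelihood test, 4 of 132 genes on the left and 18 of 129 on the right.

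With 5-FU, 5 pathway genes were higher and 4 lower in *Tespa1*+/+ LSKs among 131 tested (6.87%, beside 7.95% of all genes). In *Tespa1*-/- LSKs 21 were higher and 12 lower among 131 tested (25.2%, beside 19.4%). *Blnk*, an adaptor through which B cells recruit PLC-gamma, rose by 1.59 in *Tespa1*+/+ (adjusted p = 3.79e-05, edgeR's quasi-likelihood test) and by 2.29 in *Tespa1*-/- LSKs (adjusted p = 5.62e-06). Summed levels of 8 B cell genes, which do not include *Blnk*, were 62.2 to 72.6 and 39.4 to 44.3 CPM in the untreated *Tespa1*+/+ and *Tespa1*-/- groups and 279.3 to 285.2 and 303.7 to 328.3 CPM after 5-FU. *Dgka*, a diacylglycerol kinase, rose by 0.90 (adjusted p = 0.02) and 1.17 (adjusted p = 7.27e-05) in *Tespa1*+/+ and *Tespa1*-/- LSKs, where the former call was lost without *Tespa1*+/+ 5-FU replicate 1 or 3 (adjusted p = 0.084 and 0.0514). *Lck*, a T cell kinase, fell by 0.78 in *Tespa1*+/+ (adjusted p = 0.00637) and by 1.05 in *Tespa1*-/- LSKs (adjusted p = 0.00118). *Nfatc2* fell by 0.94 in *Tespa1*+/+ LSKs (adjusted p = 0.00493), and its log2 fold change in *Tespa1*-/- LSKs was -0.45 (adjusted p = 0.0924).

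Further genes were named from *Tespa1*-/- LSKs with 5-FU. *Lrmp*, an ER protein that binds IP3 receptors, rose by 0.79 (adjusted p = 6.47e-05, edgeR's quasi-likelihood test). *Bcl2* fell by 0.88 (adjusted p = 1.72e-05), and *Cds1*, which serves the resynthesis of phosphoinositides, fell by 1.25 (adjusted p = 0.000599). *Camk2g* fell by 0.59 (adjusted p = 0.0119), a call lost with all 12 libraries in 1 fit (0.129). *Mcub*, a subunit of the mitochondrial calcium uniporter, rose from 0.571 ± 0.2 to 2.84 ± 0.849 CPM (adjusted p = 0.0067), and this call was lost with all 12 libraries in 1 fit (0.0647). Calls of *Cracr2b* (0.557 ± 0.357 to 2.15 ± 0.677 CPM), *Trpc6* (4.48 ± 0.225 to 7.85 ± 0.587 CPM) and *Slc8b1* (8.83 ± 0.99 to 15.7 ± 3.52 CPM) rested on adjusted p-values of 0.0359, 0.0138 and 0.0196. They were lost in 4, 2 and 4 of the 6 fits without 1 library, with highest adjusted p-values of 0.124, 0.0571 and 0.0797. With all 12 libraries in 1 fit the calls of *Cracr2b* (0.209) and *Trpc6* (0.064) were lost too, as was that of *Cracr2b* with no filter (0.0573). *Atp2a1*, a calcium pump of muscle, had 31, 20 and 15 counts without and 0, 4 and 1 counts with 5-FU, and the treated libraries are at about the 3-count floor.

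Across the 12 libraries, 4 of the 5 genes whose log2(CPM + 1) followed that of *Tespa1* most closely among 14933 genes with a mean of at least 1 CPM were *Ifi203* (Pearson r = 0.977), *Ifi206* (r = 0.976), *Epsti1* (r = 0.972) and *Fcho2* (r = 0.967). *Ifi203* had 259.3 ± 8.58 CPM (SD, n = 3) in wild-type and 218.1 ± 11.7 CPM in knockout LSKs at rest. With the drug it had 321.7 ± 14.7 CPM in the wild type and 139.2 ± 4.23 CPM in the knockout, which is the order of the groups for *Tespa1*. Of the other 9 genes, *Nfatc1* was nearest with r = 0.86, at rank 184, and *Stim1* was the one gene with a negative value, r = -0.41. The remaining 7 lay between 0.25 for *Hspa9* and 0.61 for *Plcg2*. These values describe 4 groups of 3 libraries that the genes share, with depth and cell makeup in common, and carry no test.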

How the data were processed

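The authors deposited 1 table of 53465 genes with unnormalized counts of reads per gene and FPKM for each of the 12 libraries. The submitters' processing notes list CASAVA 1.8, HISAT2, StringTie, edgeR and GRCm38 without roles, while what counted the reads, and whether by strand, is not given in the sources used here. Libraries were made with a stranded poly-A kit and sequenced as paired ends. Columns were matched to libraries by genotype, treatment and replicate number in their names, with 0 columns of other samples. The deposited FPKM were used to compare levels between genes, and the counts for all tests.

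Counts were tested with edgeR 4.0.16 in R 4.3.3 (filterByExpr with a minimum count of 10, TMM, glmQLFit and glmQLFTest) on the 6 libraries of a comparison, or on 12 for the interaction, and p-values were adjusted by Benjamini-Hochberg over all genes tested. A gene was called at an adjusted p below 0.05. Intervals of 95% come from the fitted standard error. Exact permutation tests were two-sided. Alternatives were DESeq2 1.42.0, RLE factors, library totals, other filters, the replicate number as a block, 12 libraries in 1 fit, thresholds with a fold above 1.5 and leaving out each library. Replicates differed by more than sampling noise (median chi-square of 2.08 to 5.87).

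The 10 genes, the pathway lists and the marker lists were chosen with earlier results of these data known. All 10 genes are named. From a pathway list, genes were named if called with a fold above 1.5, at most the 3 largest per list in a genotype comparison or the interaction and the 2 largest in a 5-FU comparison, and for likeness the 5 genes with the highest r. *Itprip* was not found under that symbol. A few genes that the rule would name are not reported here, but remain in the counts. RefSeq gave promoter stretches (GRCm38.p6) and GENCODE M21 the exons. Other steps used Python 3.11 with SciPy 1.17.1 and pandas 2.3.3, and plots were drawn in matplotlib 3.10.9.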

Additional observations from a re-analysis of the deposited data

Results flagged for a closer look

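The effect of the genotype differed between LSKs with and without 5-FU for the 8 genes given here, by the interaction in edgeR's quasi-likelihood test over the 12 libraries with an adjusted p below 0.05. For *Tespa1* the genotype effect after 5-FU minus that in untreated LSKs was -1.04 on the log2 scale, and for *Plcg1* it was -0.54, a call lost in 6 of the 12 fits without 1 library (highest adjusted p = 0.0774). For *Blnk* the difference was 0.72 (adjusted p = 0.0149), a call lost without *Tespa1*-/- 5-FU replicate 2 (adjusted p = 0.0526). The other 5 genes of the pathway lists differed by less than 1.5-fold and were chosen after their values were seen. They were *Itpkb* (0.51), *Lrmp* (0.41), *Bcl2* (-0.54), *Atp2a3* (0.42) and *Calm3* (0.39). In fits without 1 library, *Tespa1*, *Itpkb*, *Bcl2* and *Calm3* kept the call throughout, *Atp2a3* lost it in 2 of 12 (highest adjusted p = 0.055) and *Lrmp* in 5 (0.0693).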

How the results depend on the processing

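Directions and calls of the single genes were recomputed under 7 alternative settings (6 for the interaction) and without each library. For the 10 genes, 640 values kept direction and side of the threshold, 42 lost a call, 4 gained one and 14 changed sign. For the pathway genes called, 796 stayed and 175 lost the call. Every change of sign was of a value that was not called. With the genotype in untreated LSKs, *Itpr1* became -0.018 with no filter and lay between -0.029 and 0.027 without 1 library. With the genotype after 5-FU, *Hspa9* became -0.014 with library totals, and without 1 library *Stim1* lay between -0.059 and 0.206 and *Orai1* between -0.464 and 0.092. For 5-FU in *Tespa1*-/- LSKs, *Orai1* became 0 with RLE factors and -0.002 with at least 10 counts in every library. Without 1 library it lay between -0.271 and 0.289, and *Itpr2* between -0.013 and 0.097. The *Orai1* interaction lay between -0.049 and 0.51.

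Counts of called genes moved as follows. Of the 10 genes, 1 was called with the genotype in untreated LSKs, but 0 at a fold above 1.5 with either an unadjusted or an adjusted p below 0.05, and 0 to 1 without 1 library. After 5-FU it was 3, against 1 at either fold threshold and 2 to 3 without 1 library. For 5-FU in *Tespa1*+/+ it was 4, against 1 with library totals, 2 with no filter, 0 at either fold threshold and 1 to 3 without 1 library. For 5-FU in *Tespa1*-/- it was 5, against 1 at either fold threshold and 3 to 5 without 1 library. For the interaction it was 2, against 1 at either fold threshold and 1 to 2 without 1 library. Of the pathway genes, 4 were called with the genotype in untreated LSKs, against 10 by DESeq2, 2 with no filter, 2 at an adjusted p with a fold above 1.5 and 1 to 6 without 1 library. After 5-FU it was 18, against 7 at an unadjusted and 2 at an adjusted p with that fold, and 10 to 18 without 1 library. For 5-FU in *Tespa1*+/+ it was 9, against 16 with all 12 libraries in 1 fit, 4 at an adjusted p with that fold and 4 to 10 without 1 library. For 5-FU in *Tespa1*-/- it was 33, against 17 and 15 at the fold thresholds and 20 to 29 without 1 library. For the interaction it was 8, against 2 at an adjusted p with that fold and 4 to 11 without 1 library. The cause was not tested.

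Same-numbered libraries did not deviate together (correlations across genes of -0.06 to 0.03). Whether they share a sort or a preparation is not given in the sources used here. Correlations from 3 libraries a group cannot decide it. The replicate number as a block left 0 of the 10 genes called with the genotype in untreated LSKs (*Tespa1* at an adjusted p of 0.0908) and 2 with 5-FU in *Tespa1*+/+ (*Itpr1* at 0.1 and *Plcg2* at 0.0738), and 2 of the pathway genes in untreated LSKs. Under the block, *Orai1* with 5-FU in *Tespa1*-/- LSKs was -0.059. The block changed no other call of the 10 genes. Over all genes it called 454 in untreated LSKs against 892 without it.

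Over all genes, DESeq2 called 1427 with the genotype in untreated LSKs, 2062 against 1352 with 5-FU in *Tespa1*+/+ LSKs and 1534 against 936 in the interaction, and all 12 libraries in 1 fit gave 2113 with 5-FU in *Tespa1*+/+ LSKs. Without 1 *Tespa1*-/- library, 338 to 365 were called in untreated LSKs. The 5 genes nearest to *Tespa1* remained 5 of 5 with a pseudocount of 0.1 and with a mean of at least 5 CPM. CPM divided by length only rescales the FPKM of a library and is no separate check of the order between genes. With 3 libraries a group, *Orai1* and *Stim1* had the widest intervals of the 10 genes in the genotype comparisons.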
